A study of Rattus norvegicus with 8 samples.

Results

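The 7 genes described here encode receptor subunits for GABA (gamma-aminobutyric acid): the GABA-A subunit genes Gabra2, Gabra3, Gabra5, Gabrb2 and Gabrg3, and the GABA-B subunit genes Gabbr1 and Gabbr2. They were chosen by symbol, and all 7 had 1 entry each among the 30560 genes of the deposited list. Their transcripts were followed across the cell types of the rat nodose ganglion, the sensory ganglion of the vagus nerve. Nuclei came from experimentally naive Long Evans rats aged 8 weeks, 18 labelled male and 18 labelled female. Each pool held the ganglia of 1 side from 6 rats, and male left, male right, female left and female right each had 3 pools, which gives 12 pools. All groups share the strain and age, and the labels give no treatment or genotype for any of them. With 18 rats per sex and 6 per pool, the left and right pools of a sex would draw on the same rats. Nuclei of all pools were spread over 8 sublibraries, which therefore show technical spread and not that between animals.

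GABA-A receptors are pentameric chloride channels, in most cases of alpha, beta and gamma subunits together, that open when GABA binds. The alpha subunit sets much of a receptor's pharmacology, the beta subunit contributes to the GABA site, and the gamma subunit takes part in the benzodiazepine site and in synaptic placement. GABA-B receptors are G protein-coupled and work as a pair, in which the Gabbr1 protein binds GABA and the Gabbr2 protein couples to the G protein and brings the pair to the cell surface. Primary sensory neurons keep a high internal chloride, so GABA-A opening can depolarise them, whereas GABA-B receptors reduce calcium entry and transmitter release at their endings. Vagal sensory neurons come in 2 lineages, nodose neurons from the epibranchial placodes and jugular neurons from the neural crest, and satellite glia wrap their cell bodies.

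After filtering, 36738 nuclei with 139954192 unique molecular identifiers (UMIs, counted transcripts) were described, with 7139364 to 19456287 UMIs per pool and a median of 2680 UMIs per nucleus. Clusters were named from marker lists: 23152 nuclei were nodose-like neurons, 2464 jugular-like neurons and 559 other neurons, which together made 26175 neurons, and 4138 were satellite glia-like, 2274 myelinating Schwann-like and 1093 vascular-like. A further 2637 nuclei stayed unnamed and are in no neuron level. They include clusters of 723, 596 and 103 nuclei that reached the neuron marker limit but fell outside the nuclei first taken as neurons. The 596, with Cartpt among their leading genes and a median of 11535 UMIs, carried 120.9% of the neuron marker level. The Schwann-like class also held the most of the 7 fibroblast markers, 2652 UMIs per 1000000 UMIs of the class (CPM) against 784 CPM in satellite glia-like nuclei and 118 CPM in neurons, beside 12218 CPM of its own 10 markers. It includes 2 clusters led by Grin2b and Adarb2 (926 and 197 nuclei). Clusters with these leading genes were named fibroblast-like at a finer clustering (464 and 361 nuclei) and in part stayed unnamed with clusters built without the GABA genes (984 nuclei), so values of Schwann-like nuclei rest on an uncertain name. Markers of the nodose lineage (9 genes) summed to 589 CPM in nodose-like and 110 CPM in jugular-like neurons, and those of the jugular lineage (7 genes) to 131 and 884 CPM. The 16 neuron markers summed to 12418 CPM in neurons and still to 10246 CPM in satellite glia-like nuclei, 82.5% of the neuron level, and to 4164 CPM, 33.5%, in Schwann-like nuclei, with no marker at 0. A neuronal transcript in these glia is therefore read against that level below. Transcripts of 2 Y-linked genes went against the labels in male left pool 1 (2.13 CPM) and female left pool 1 (87.9 CPM), while the other male-labelled pools had 83.5 to 90.7 CPM and the other female-labelled pools 1.51 to 3.12 CPM. Sex comparisons below are of labels, and those over all pools of a class are given again without these 2 pools. Of 34795 well-barcode combinations, 1865 occurred in more than 1 sublibrary.

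GABA-B subunits were counted in every class. Gabbr1 (ENSRNOG00000000774) stood at 303 CPM in neurons, with 265, 304 and 369 CPM as the lowest, median and highest pool. In satellite glia-like nuclei it stood at 317 CPM (264, 312 and 354 CPM over the pools), so that the 2 classes overlapped nearly throughout, and the level was higher in glia in 9 of 12 pools. Schwann-like nuclei had less Gabbr1, 177 CPM (141, 173 and 206 CPM), below the neurons of the same pool in 12 of 12 pools. Between the neuron lineages the difference was small: 309 CPM in nodose-like (269, 306 and 372 CPM) and 258 CPM in jugular-like neurons (221, 258 and 376 CPM), a ratio of 0.834 with nodose-like higher in 10 of 12 pools. The ranges overlapped.

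Gabbr2 (ENSRNOG00000008431), the other subunit of the pair, separated the classes far more. Jugular-like neurons held 863 CPM, with 719, 842 and 899 CPM as the lowest, median and highest pool. Nodose-like neurons held 166 CPM (135, 160 and 212 CPM), 5.19-fold less than jugular-like neurons, and the ranges of the pools did not meet. A Gabbr2 UMI was present in 82.7% of jugular-like and 32.4% of nodose-like nuclei, whose median depths were 2726.5 and 2925 UMIs, and in 54.4% and 13.4% after each nucleus was thinned to 1000 UMIs (118 and 906 shallower nuclei left out). Among non-neuronal classes, satellite glia-like nuclei had 82.7 CPM (55.6, 78.5 and 108 CPM) and Schwann-like nuclei 39.8 CPM (9.18, 36.4 and 83.3 CPM). All neurons exceeded satellite glia-like nuclei 2.88-fold in Gabbr2, in 12 of 12 pools without overlap. The 15 neuron markers above 20 CPM had between 34.3% and 159.5% of their neuron level in those glia, a range that holds the Gabbr2 ratio, and whether the glia make any of these transcripts was not tested.

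The promoters of the 2 GABA-B genes and of Gabra3 are shown because these 3 genes took 3 different patterns over the classes: Gabbr1 in all classes, Gabbr2 highest in jugular-like neurons, and Gabra3 highest in satellite glia-like nuclei (below). Each line gives the 250 bases before the RefSeq start of the gene (build GRCr8, written 5′ to 3′ on the strand of the gene), with every CG dinucleotide in capitals. They lie at chr20:1499237-1499486, chr5:66083696-66083945 and chrX:155543871-155544120, all on the minus strand.
Gabbr1: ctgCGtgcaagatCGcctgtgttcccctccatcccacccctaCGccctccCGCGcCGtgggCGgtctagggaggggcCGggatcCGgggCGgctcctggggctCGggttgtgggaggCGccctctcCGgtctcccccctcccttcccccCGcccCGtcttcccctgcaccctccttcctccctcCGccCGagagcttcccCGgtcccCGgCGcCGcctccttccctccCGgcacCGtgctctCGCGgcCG
Gabbr2: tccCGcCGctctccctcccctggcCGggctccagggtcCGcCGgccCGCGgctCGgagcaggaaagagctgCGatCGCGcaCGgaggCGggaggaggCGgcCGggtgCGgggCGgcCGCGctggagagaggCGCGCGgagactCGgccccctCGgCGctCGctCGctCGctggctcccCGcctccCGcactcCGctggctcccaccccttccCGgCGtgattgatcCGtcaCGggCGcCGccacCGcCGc
Gabra3: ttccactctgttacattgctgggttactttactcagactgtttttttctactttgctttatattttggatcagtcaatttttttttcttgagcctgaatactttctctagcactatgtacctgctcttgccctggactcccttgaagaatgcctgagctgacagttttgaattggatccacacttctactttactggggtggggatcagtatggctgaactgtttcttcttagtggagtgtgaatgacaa
The dinucleotide CG, which reads the same on both strands, occurred 26 times upstream of Gabbr1, 39 times upstream of Gabbr2 and 0 times upstream of Gabra3. Over the 33469 promoters of the table the median was 5, with at least 26 in 8.6% of them, at least 39 in 1.4% and none in 7.8%. Gabra5 had 37, Gabrg3 33 and Gabrb2 8. The table matched 6 of the 7 genes, all but Gabra2. The counts describe the sequence only, and no measurement here bears on its use.

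Gabra2 (ENSRNOG00000002349) had a class profile like that of Gabbr2. The alpha 2 subunit is a receptor component of many sensory neurons. Gabra2 stood at 258 CPM in jugular-like neurons, with 217, 250 and 311 CPM as the lowest, median and highest pool. In nodose-like neurons it stood at 41.4 CPM (30.7, 42.1 and 58.2 CPM), 6.22-fold lower, and no nodose-like value reached the lowest jugular-like one. A UMI was found in 46.2% of jugular-like and 9.05% of nodose-like nuclei, or in 19.8% and 3.05% after thinning. Satellite glia-like nuclei had 30.4 CPM (14.9, 28.0 and 51.5 CPM) and Schwann-like nuclei 13.3 CPM (5.15, 10.6 and 23.6 CPM). The satellite glia-like level of Gabra2 was below the neuron level of the same pool in 11 of 12 pools, and lay within the range of the neuron markers in those glia.

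Gabra3 (ENSRNOG00000056558) was the only one of the 7 with at least 2-fold more in satellite glia-like nuclei than in neurons in the clustering reported. In 2 other clusterings Gabrb2 also passed 2-fold (below). The alpha 3 subunit is one of those through which benzodiazepines act. Satellite glia-like nuclei held 45.6 CPM, with 34.4, 44.7 and 72.1 CPM as the lowest, median and highest pool. Neurons held 9.13 CPM (5.36, 9.22 and 12.1 CPM), below the glia in 12 of 12 pools with no overlap, at a ratio of 0.200. Schwann-like nuclei held 7.76 CPM (0, 5.42 and 16.04 CPM, 3 pools at 0), 5.88-fold below satellite glia-like nuclei. The share of nuclei with a Gabra3 UMI was 12.1% in satellite glia-like nuclei and 3.07% in neurons (3.93% and 1.07% after thinning), although neurons were deeper, with medians of 2897 against 2129 UMIs. All 5 satellite glia-like subclusters had more Gabra3 than the neuron mean: 78.0 CPM in the one led by Tnc and Fbln2 (651 nuclei), and 30.9 to 42.4 CPM in the others. The neuron markers above 20 CPM reached at most 159.5% of their neuron level in these glia, and Gabra3 stood 5.00-fold above its own. Single markers of the nodose lineage reached up to 162.8% there, and those of the jugular lineage up to 74.9%. The satellite glia-like subclusters carried 66.7% to 110.7% of the neuron marker level. Such markers do not bound the carry-over of another neuronal transcript, and whether the glia make Gabra3 was not tested. Jugular-like neurons had 21.5 CPM (5.33, 21.1 and 39.7 CPM) and nodose-like neurons 7.60 CPM (4.51, 7.33 and 10.7 CPM), a ratio of 2.83 with jugular-like higher in 10 of 12 pools and overlapping ranges. With clusters built without the GABA genes these were 17.8 and 10.1 CPM. A cluster of 793 nuclei that stayed unnamed, led by Lypd1, Th and Tyrp1 and with 100.3% of the neuron marker level, had 39.6 CPM of Gabra3.

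Gabra5 (ENSRNOG00000010803) was sparse. Its subunit is known for extrasynaptic receptors that carry tonic currents in the brain. Neurons had 5.13 CPM (4.01, 5.05 and 6.10 CPM as the lowest, median and highest pool), from 509 UMIs in all. Jugular-like neurons had 9.40 CPM and nodose-like neurons 4.74 CPM, a ratio of 1.98 with jugular-like higher in 11 of 12 pools, but the ranges overlapped and the jugular-like value rests on 87 UMIs. Satellite glia-like nuclei had 2.70 CPM from 36 UMIs, and Schwann-like nuclei 1.23 CPM from 6 UMIs. The order of the classes below the neurons is not resolved at this depth.

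Gabrb2 (ENSRNOG00000003680), which encodes a beta subunit, resembled Gabra3 in that neurons were not its highest class, but by less. Satellite glia-like nuclei had 16.1 CPM (8.38, 16.1 and 22.7 CPM over the pools) and neurons 8.30 CPM (4.62, 8.34 and 11.2 CPM). The ratio of neurons to satellite glia-like nuclei was 0.517, with glia higher in 11 of 12 pools and overlapping ranges. Taken as glia over neurons it was 1.93-fold, above the range of the neuron markers. Schwann-like nuclei had 13.7 CPM, spread from 0 to 35.4 CPM with a median of 13.4 CPM, and were not separated from either. The satellite glia-like subclusters were unequal in Gabrb2, from 4.60 CPM in the one led by Kctd12, Ctxnd1 and Col28a1 to 30.3 CPM in the one led by Tnc and Fbln2, the same subcluster that held the most Gabra3. The 2 neuron lineages were alike within their spread, with 8.38 CPM in nodose-like and 7.02 CPM in jugular-like neurons.

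Gabrg3 (ENSRNOG00000014862), a gamma subunit gene, was a neuronal transcript. Neurons had 20.1 CPM (11.5, 18.5 and 29.5 CPM as the lowest, median and highest pool), satellite glia-like nuclei 5.78 CPM (2.25, 5.80 and 10.1 CPM) and Schwann-like nuclei 6.33 CPM. Neurons exceeded satellite glia-like nuclei 3.48-fold, in 12 of 12 pools without overlap. Jugular-like neurons had 54.1 CPM (22.8, 51.9 and 84.8 CPM), 3.66-fold more than nodose-like neurons at 14.8 CPM (8.20, 13.6 and 22.2 CPM), again without overlap. That lineage ratio depended on the clustering: with clusters built without the GABA genes, Gabrg3 was 20.03 CPM in jugular-like and 12.9 CPM in nodose-like neurons, a log2 ratio of 0.60 in place of 1.80, and its log2 ratio of neurons to satellite glia-like nuclei was 0.99 in place of 1.64. In that clustering the cluster led by Tafa1 and Ccdc172 (574 nuclei) met 2 jugular markers, below the 3 required, and was counted as other neurons. As reported here, the Tafa1-led subcluster (746 nuclei) met 3 and was jugular-like.

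**Figure D1:**
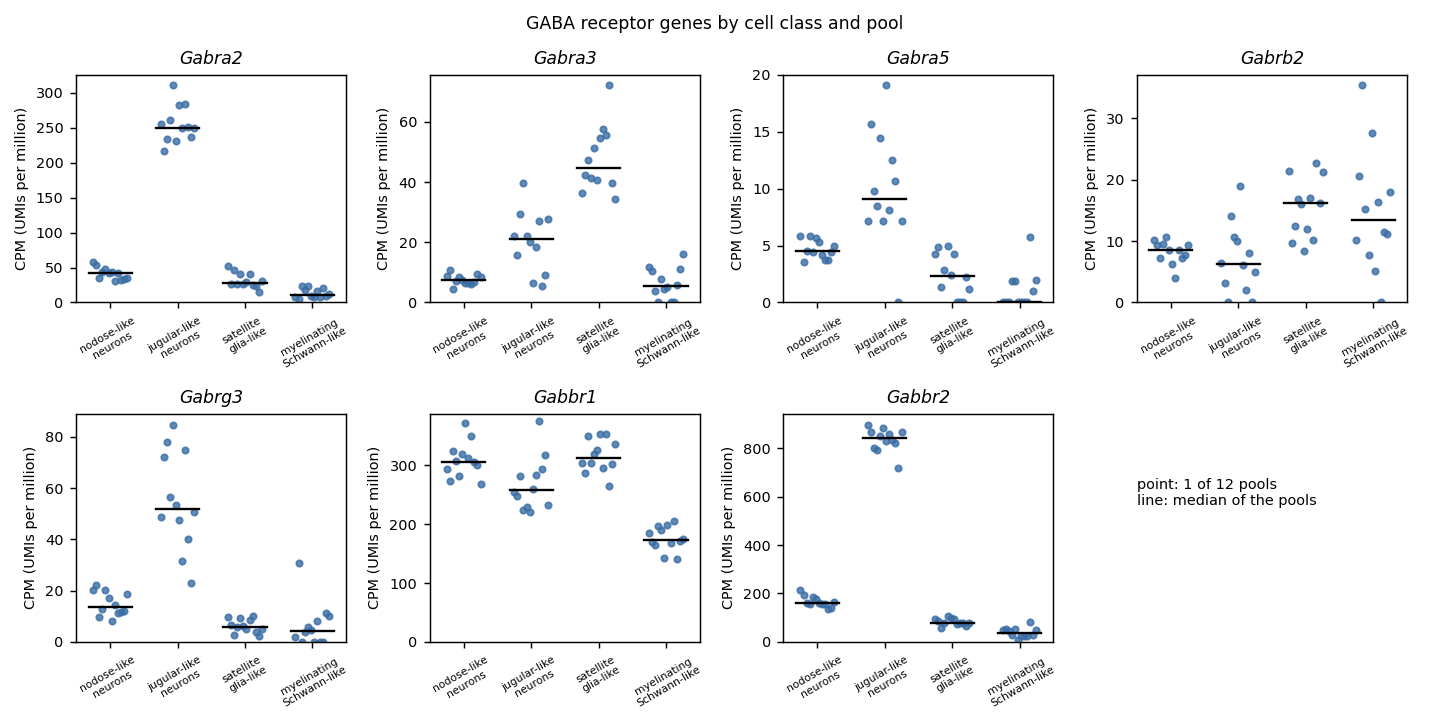
Level of each gene in CPM (vertical axes, linear, from 0) in 4 cell classes, with 1 point for each of the 12 pools and a line at their median. Jugular-like neurons lie above all other classes shown for Gabra2, at 217 to 311 CPM, and for Gabbr2, at 719 to 899 CPM, while satellite glia-like nuclei lead for Gabra3, with 34.4 to 72.1 CPM.

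Set against all genes with at least 5 CPM in neurons, the differences between classes were graded as follows, by limits set after the values had been seen. At least 2-fold more in jugular-like than nodose-like neurons, and more in all 12 pools, was found for 3 of the 7 (Gabra2, Gabrg3 and Gabbr2) and for 3.32% of the 10665 genes. For neurons over satellite glia-like nuclei it was found for 2 of the 7 (Gabrg3 and Gabbr2) and for 7.03% of genes, and in the other direction for 1 of the 7 (Gabra3) and 9.13% of genes. Neurons over Schwann-like nuclei gave 2 of the 7 (Gabra2 and Gabbr2) against 16.3% of genes, and satellite glia-like over Schwann-like nuclei 2 of the 7 (Gabra2 and Gabra3) against 8.94%. For Gabra2 the latter log2 ratio, 1.14, was 0.57 at the finer clustering, below 2-fold. The cells were clustered on these same counts, so none of these class differences was tested.

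Within the neurons, 25 subclusters of at least 100 nuclei showed how unevenly each gene was spread. The highest subcluster exceeded the median subcluster at least 10-fold (1 CPM added to each) for 4 of the 7: 27.7-fold for Gabrb2, 22.1-fold for Gabra2, 19.4-fold for Gabrg3 and 17.4-fold for Gabra5. Of the 10665 genes 3.09% passed that limit. Gabbr2 reached 7.25-fold, Gabra3 4.57-fold and Gabbr1 2.39-fold. The top 3 subclusters held 64.5% of neuron UMIs for Gabrg3 and 63.9% for Gabra5, with 8.4% and 8.2% of neuron nuclei, but 31.2% for Gabbr1, with 13.3% of nuclei.

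Gabra2 was concentrated in a nodose-like subcluster led by Gabrg1, Syndig1 and Tmem196 (328 nuclei), with 425 CPM overall and 301, 434 and 518 CPM as the lowest, median and highest of 12 pools. It was matched by a jugular-like subcluster led by Tafa1, Ccdc172 and Mdfic2 (746 nuclei), with 402 CPM (314, 404 and 516 CPM in 11 pools with at least 10 nuclei), so these 2 do not differ beyond their spread. Next came a nodose-like subcluster led by Tmem233, Spon1 and Tacr1 (1092 nuclei), with 227 CPM (170, 201 and 358 CPM), which overlapped both. The high Gabra2 level was thus not limited to the jugular-like lineage. With clusters built without the GABA genes the Tafa1-led cluster was itself counted as other neurons. The median subcluster stood at 18.3 CPM, and the lowest 3, all nodose-like and led by Sctr, Hunk and Xylt1, at 7.75 to 8.25 CPM. A Gabra2 UMI was seen in 71.0% of nuclei of the Gabrg1-led subcluster and in 2.30% of those of the lowest one, or 26.5% and 0.739% after thinning.

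Gabrb2 peaked in a different nodose-like subcluster, led by Pcdh15 and Ndst4 (760 nuclei), with 93.1 CPM overall and 68.9, 94.0 and 126 CPM over 12 pools. The next were the Gabrg1-led subcluster at 28.1 CPM (0, 26.5 and 78.9 CPM) and the Tmem233-led one at 27.5 CPM (5.06, 27.9 and 41.3 CPM), which were indistinguishable from each other. The Pcdh15-led subcluster therefore stood apart from the Tmem233-led one in every pool but met the range of the Gabrg1-led one. The lowest Gabrb2 level was 0.596 CPM, from 2 UMIs, in the subcluster led by Sctr and Doc2b, followed by 0.929 CPM in the Itm2a-led and 1.12 CPM in the Htr4-led one. The names of the 2 highest depended on the clustering. Built without the GABA genes or at the finer resolution, the Pcdh15-led and Gabrg1-led clusters were counted as other neurons. The nodose-like level of Gabrb2, 8.38 CPM, was then 5.88 and 3.72 CPM, and that of Gabra2, 41.4 CPM, was 27.3 and 25.4 CPM.

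Gabra5 was highest in the nodose-like subcluster led by Pappa2, Csmd3 and Nox4 (722 nuclei), with 47.6 CPM (21.5, 44.8 and 109 CPM over 12 pools). The Tmem233-led subcluster followed with 40.6 CPM (26.1, 43.0 and 51.0 CPM), well within that range, and the Gabrg1-led one with 18.4 CPM (0, 13.5 and 56.2 CPM). No Gabra5 UMI was found in the jugular-like subcluster led by Htr4 or in the other-neuron subcluster led by Poteg, where 3 UMIs would amount to 3.36 and 5.23 CPM, and 1 UMI (0.256 CPM) in the Hunk-led one.

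Gabrg3 was high in 4 subclusters of all 3 neuron groups. The other-neuron subcluster led by Dcc, Ddc and Dlgap2 (362 nuclei) had 162 CPM, with 23.3, 133 and 393 CPM over the pools. It met 7 nodose markers and 8 markers of sympathetic neurons or chromaffin-type cells, and Slc6a2 and Dbh were among its leading genes. At the finer clustering a cluster led by Slc6a2 and Dbh (42 nuclei) stood apart from a Dcc-led one (335 nuclei), so this subcluster may be mixed. The Tmem233-led subcluster had 148 CPM (67.9, 138 and 204 CPM), the Tafa1-led jugular-like one 128 CPM (46.5, 134 and 179 CPM) and the jugular-like one led by Trpm8 (180 nuclei) 106 CPM (26.2, 92.5 and 313 CPM). Their ranges overlapped throughout, so that the order among them is not established. The next subcluster, led by Gabrg1, stood at 40.1 CPM and the lowest 3, led by Agtr1a, Chodl and Xylt1, at 1.12 CPM from 3 UMIs, 1.79 CPM from 2 UMIs and 2.41 CPM from 14 UMIs. At a finer clustering the highest subcluster was another one, of 417 nuclei with Gabrg3 itself among its leading genes, at 337 CPM.

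Gabra3 varied less among neurons. The Trpm8-led subcluster had 39.3 CPM, but from 17 UMIs and with 0, 32.2 and 110 CPM over 7 pools. The Tmem233-led subcluster had 31.2 CPM (11.9, 30.1 and 40.2 CPM) and the Tafa1-led one 29.3 CPM (11.6, 27.3 and 87.2 CPM), and the 3 were not separable. The lowest values were 1.51 CPM in the subcluster led by Itgae and Ntsr1 and 1.72 CPM, from 3 UMIs, in the Gabrg1-led one, which held the most Gabra2, followed by 2.89 CPM in the Itm2a-led one.

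The nodose-like subcluster led by Tmem233, Spon1 and Tacr1 was among the top 3 for all 5 GABA-A genes. Gabrg3 was also among its own leading genes, so the clustering used it and this is a description. Its Gabbr2 level, 719 CPM (527, 724 and 813 CPM), was the highest of the nodose-like subclusters.

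Gabbr2 was highest in the other-neuron subcluster led by Poteg, Kcnj6 and Cdh9 (197 nuclei), with 1420.2 CPM overall and 1146, 1387 and 1542 CPM over 7 pools. A UMI was present in 95.9% of its nuclei, 76.9% after thinning. The jugular-like subcluster led by Htr4, Hs6st2 and Gna14 (345 nuclei) had 1229.6 CPM (986, 1232 and 1539 CPM in 8 pools), which overlaps the first. The jugular-like one led by Tac1, Calca and Gfra3 (1136 nuclei), genes of peptide-releasing pain neurons, had 889.9 CPM (720.2, 846 and 941 CPM) and did not reach either. At the other end, 3 nodose-like subclusters had 31.0 CPM (led by Sctr), 50.2 CPM (led by Itm2a) and 50.9 CPM (led by Fhip1a, 3847 nuclei and the largest of all).

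Gabbr1 had its highest level in the nodose-like subcluster led by Kcna1, Spp1 and Nefh (959 nuclei), with 595 CPM (389, 590.1 and 708 CPM over 12 pools). The subclusters led by Itm2a, at 448 CPM (358, 447 and 508 CPM), and by Itgae and Ntsr1, at 439 CPM (378, 433 and 537 CPM), came next and overlapped it. Those 3 differ in depth, with medians of 1716, 6314 and 6519 UMIs per nucleus. With clusters built without the GABA genes the highest subcluster was led by Cartpt and Vat1 and held 451.5 CPM, with 63.3% of the nuclei of the Kcna1-led one. At the finer clustering it was led by F2r, Dsp and Stom (525 nuclei, 95.4% of them from the Kcna1-led one) and held 679 CPM. Both clusterings held another cluster led by Spp1 and Kcna1 apart from the highest (279 and 314 nuclei), so the leading genes of the peak depend on the clustering. The lowest Gabbr1 levels, 178 CPM in the Htr4-led, 188 CPM in the Pappa2-led and 189.5 CPM in the Pcdh15-led subcluster, never fell below 116 CPM in a pool. The Itm2a-led subcluster combined the second highest Gabbr1 with the second lowest Gabbr2, and the Htr4-led one the lowest Gabbr1 with the second highest Gabbr2.

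**Figure D2:**
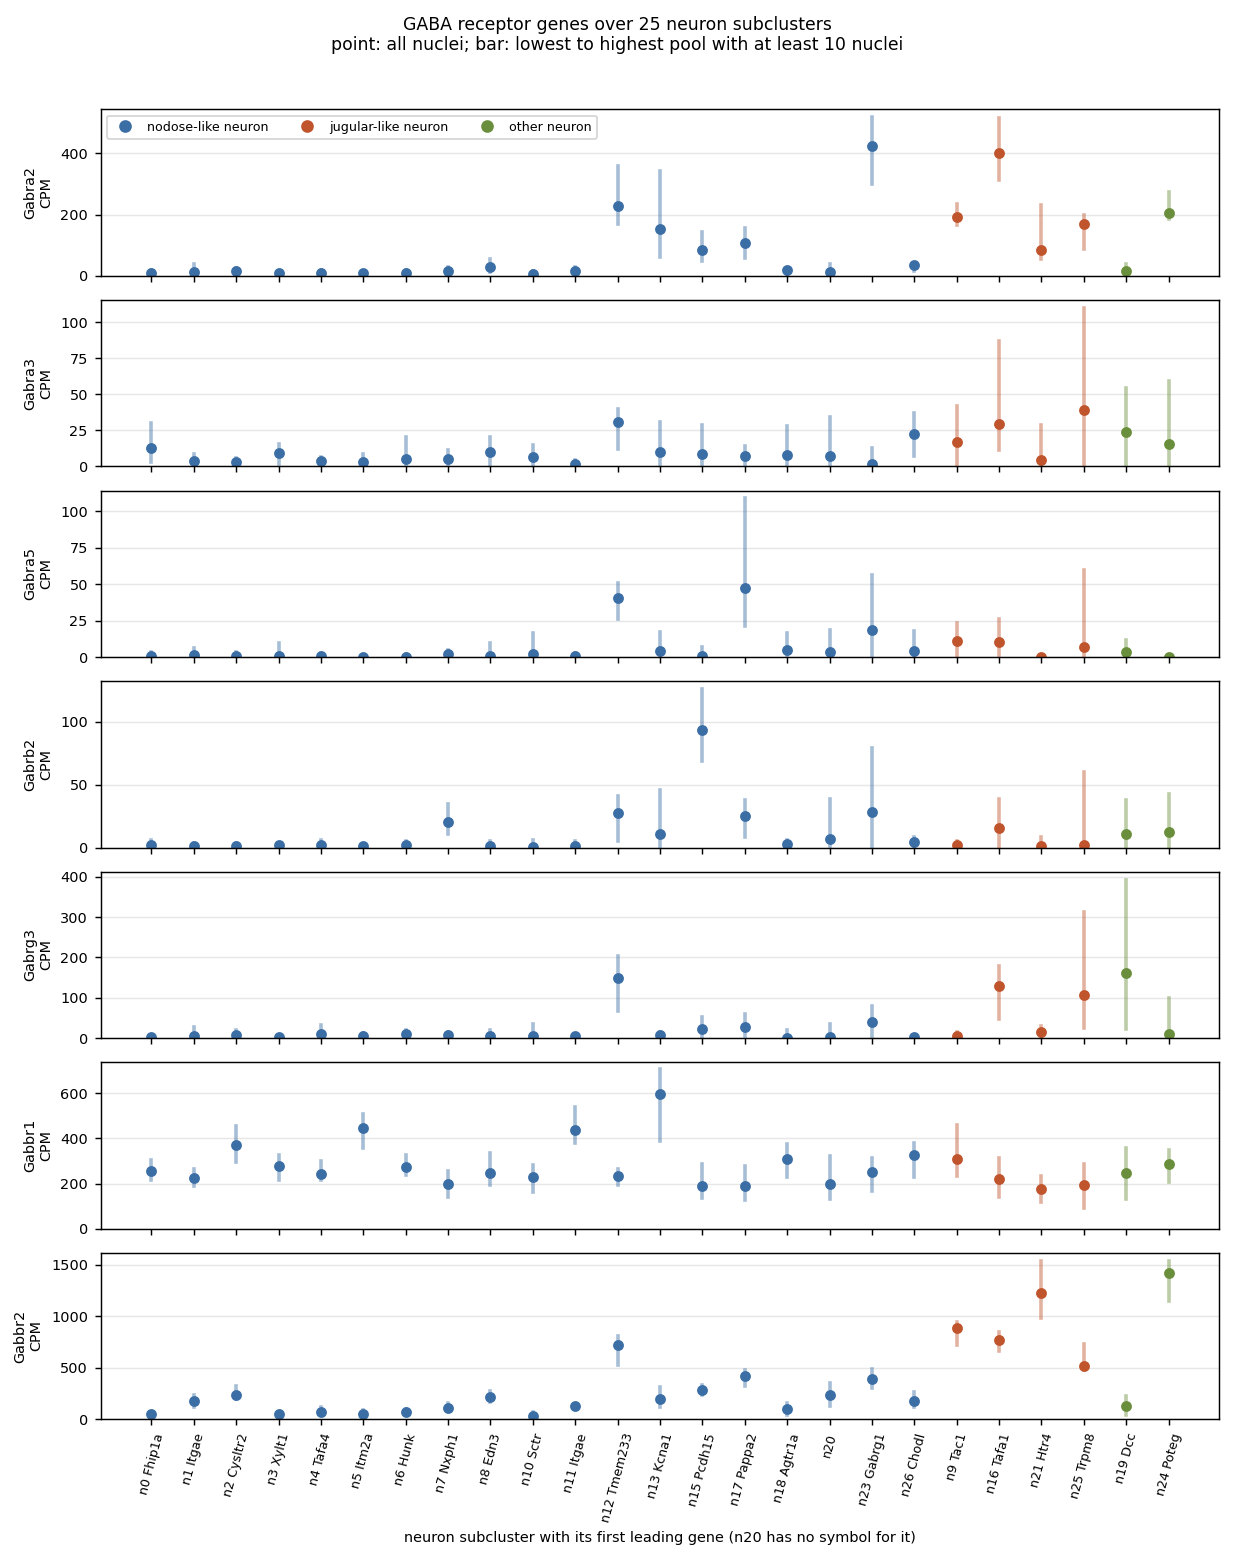
Level of each gene in CPM (vertical axes, linear, from 0) in the 25 neuron subclusters (horizontal axis), coloured by nodose-like, jugular-like and other neurons. The point is the value over all nuclei and the bar runs from the lowest to the highest pool with at least 10 nuclei, as for Gabrb2 in the Pcdh15-led subcluster, at 93.1 CPM between 68.9 and 126 CPM.

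Likeness of pattern was measured as Pearson's r of log2(CPM + 5) over the 25 subclusters, which share their libraries and differ in depth, so r is a description without a test. Between the members, Gabra2 and Gabbr2 were the most alike with r = 0.85, and the 2 GABA-B genes ran apart with r = -0.27. Among 6722 genes, those nearest to Gabra2 were Adam11 (0.92), Rph3a (0.91) and Cpne6 (0.90), and to Gabbr2 Rbfox3 (0.94), Tanc1 (0.92) and Cdk14 (0.90). The nearest to Gabrb2 were Vsnl1 (0.90), Rin2 (0.88) and Tmem163 (0.84). Gabbr1 was nearest to Rc3h2 (0.96), ENSRNOG00000001465 (0.95) and Mrgpre (0.95). The other 3 members had no gene as close. Gabra3 was nearest to Brinp2, Gpm6a and Fign (0.74 each), Gabra5 to Cdh12 (0.75), Tacc1 (0.73) and ENSRNOG00000066703 (0.71), and Gabrg3 to Grid1 (0.79), Zfp385b (0.72) and Thsd7b (0.70). In the RefSeq gene order Gabra5 lies next to Gabrg3, Gabra2 next to Gabrg1, and Gabrb2 next to Gabra6. The Gabrg1-led subcluster, at 576 CPM of Gabrg1, was the one with the highest Gabra2. Over the subclusters r was 0.71 for Gabra2 with Gabrg1, 0.53 for Gabra5 with Gabrg3 and 0.29 for Gabrb2 with Gabra6, of which neurons gave 1 UMI.

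Of a list of 45 other genes of GABA signalling, 44 had an entry. Among the GABA-A subunits of that list, Gabrg1, a gamma subunit, had 34.3 CPM in neurons, 31.1 CPM in satellite glia-like and 7.56 CPM in Schwann-like nuclei. Gabra6 and Gabrd gave 1 UMI each over all neurons, and Gabrp, Gabrq and the 3 rho subunits were each below 2 CPM. The level of a gene depends on its length and transcripts in nuclei, so these values order classes within a gene and not genes among each other.

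GABA-B receptors carry KCTD proteins, which tune their response, and open GIRK potassium channels. Kctd8 had 794 CPM in jugular-like and 240 CPM in nodose-like neurons and followed Gabbr2 over the subclusters with r = 0.82. Kctd16 had 2067 and 1132 CPM, with r = 0.64. Kctd12 was higher in glia as a class, with 545 CPM in satellite glia-like, 390 CPM in Schwann-like nuclei and 27.5 CPM in neurons, and its r with Gabbr2 was -0.05. Among neuron subclusters Kctd12 ran from 12.1 CPM in the Tafa1-led one to 189 CPM in the Dcc-led and 232 CPM in the Chodl-led one (172 nuclei). Of the GIRK channel genes, Kcnj3 had 146 CPM in neurons and an r of 0.01 with Gabbr2. For the others r was 0.49 for Kcnj6, 0.34 for Kcnj5 (20 UMIs in neurons) and -0.41 for Kcnj9 (3.66 CPM). Kcnj6 was a leading gene of the Poteg-led subcluster with the highest Gabbr2, at 1305 CPM there against 22.6 CPM in all neurons.

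Slc12a2, the transporter that loads sensory neurons with chloride, had 153 CPM in neurons, and Slc12a5, which extrudes chloride in central neurons, 1.17 CPM. Of the genes that make and package GABA, Gad1 had 0.17 CPM and Gad2 1.43 CPM in neurons, and Slc32a1 gave no UMI there, where 3 UMIs would amount to 0.0303 CPM. The uptake transporter gene Slc6a11 had 10.9 CPM in satellite glia-like and 26.6 CPM in Schwann-like nuclei against 1.47 CPM in neurons. Abat, whose enzyme breaks GABA down, had 86.8, 42.5 and 18.9 CPM.

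Pools differed in Gabra2 and Gabbr2 along with their share of jugular-like neurons. That share ran from 1.65% of neurons in male left pool 3 and 2.39% in female right pool 2 to 18.9% in female left pool 2 and 22.7% in male left pool 1. Gabra2 in all neurons was lowest, 38.1 CPM, in female right pool 2 and highest, 107 CPM, in male left pool 1. Gabbr2 was likewise lowest and highest in these 2 pools, at 160 and 394 CPM. The coefficient of variation over the 12 pools was 31.9% for Gabra2 and 29.4% for Gabbr2 in all neurons. Within nodose-like neurons it was 20.9% and 13.4%, and within jugular-like neurons 10.3% and 5.8%. For Gabbr1, whose level differs little between the lineages, it was 10.3% in all, 9.8% in nodose-like and 16.9% in jugular-like neurons. For Gabrg3 it was about the same in all neurons (31.8%), nodose-like (31.5%) and jugular-like neurons (34.8%). Over the 8 sublibraries, which share the pools, the variation was 7.7% for Gabra2, 3.8% for Gabbr2, 2.4% for Gabbr1 and 13.6% for Gabrg3. Whether the jugular-like share reflects the tissue dissected was not tested.

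**Figure D3:**
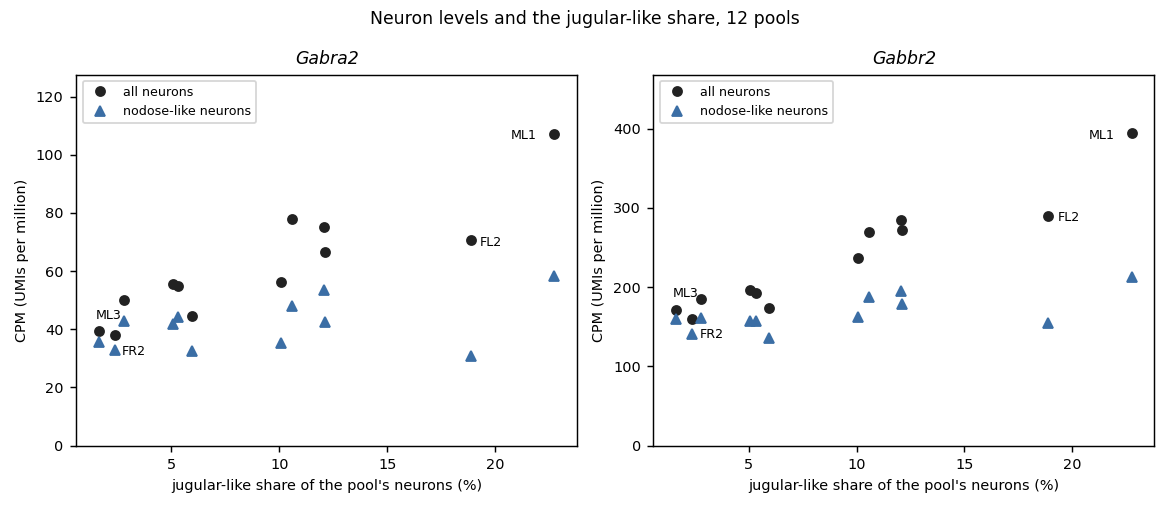
Level of Gabra2 and Gabbr2 in CPM (vertical axes, linear, from 0) against the jugular-like share of a pool's neurons in percent (horizontal axis), for the 12 pools. Circles are all neurons and triangles nodose-like neurons only. Male left pool 1 (ML1), with a share of 22.7%, has 107 CPM of Gabra2 and 394 CPM of Gabbr2 in all neurons, and 58.2 and 212 CPM in nodose-like neurons.

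Right and left pools were compared with edgeR's quasi-likelihood test on pool sums over all genes, with Benjamini-Hochberg adjustment. Such p-values measure only the spread between pools. In neurons, 0 of the 7 passed an adjusted p of 0.05, while 0.135% of the 14061 genes tested did (19 genes). None of the 7 had an unadjusted p under 0.05 (953 of all genes did), and DESeq2 called 67 genes (0.476%) but none of the 7. The log2 fold changes, right over left, ran from -0.26 for Gabra2 to 0.24 for Gabrb2, with a median of -0.02 beside -0.0066 for all genes. Gabra2 had 39.3, 63.0 and 107 CPM as the lowest, median and highest left pool and 38.1, 55.6 and 78.0 CPM on the right, which overlap almost fully (log2 fold change -0.26, SE 0.17, edgeR adjusted p = 0.848). Gabrb2 had 4.62, 7.51 and 9.24 CPM on the left and 7.36, 8.75 and 11.2 CPM on the right (0.24, SE 0.12, edgeR adjusted p = 0.760). The others were Gabbr2 with -0.23, Gabbr1 with -0.13, Gabra5 with -0.02, Gabra3 with 0.10 and Gabrg3 with 0.14. A p above the threshold does not show that the sides are alike.

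By labelled sex, 0 of the 7 passed in neurons, as did 0.0% of the 14061 genes, although 4 of the 7 and 2691 of all genes had an unadjusted p under 0.05. DESeq2 called 447 genes (3.18%) and none of the 7. Both fits count left and right pools of a sex as independent, although these would draw on the same rats. The p-values by labelled sex, here and below, do not account for that, and a block for replicate number was fitted for side only. Point estimates, female-labelled over male-labelled, were below 0 for 6 of the 7, with a median of -0.35 beside -0.0007 for all genes. The fits by side and by labelled sex take all neurons of a pool together. The jugular-like share of those neurons, from 1.65% to 22.7% over the pools, was not a term in them. Gabrg3 had 11.7, 25.6 and 29.5 CPM as the lowest, median and highest male-labelled pool and 11.5, 17.1 and 22.3 CPM in the female-labelled ones (-0.50, SE 0.19, edgeR adjusted p = 0.174). Gabra2 had 39.3, 70.9 and 107 CPM in male-labelled and 38.1, 52.7 and 70.5 CPM in female-labelled pools (-0.47, SE 0.17, edgeR adjusted p = 0.173). Gabbr2 had 172, 271 and 394 CPM against 160, 191 and 290.2 CPM (-0.38, SE 0.17, edgeR adjusted p = 0.232). The groups overlapped in each of these genes. Gabrb2 gave -0.35 (SE 0.12, edgeR adjusted p = 0.155), Gabra5 -0.26, Gabra3 -0.25 and Gabbr1 0.08. Without the 2 pools whose Y-linked transcripts go against their label, the estimates shrank to -0.29 for Gabra2, -0.20 for Gabbr2, -0.35 for Gabrg3 and -0.09 for Gabra3. Gabrb2 was then -0.31, Gabra5 -0.28 and Gabbr1 0.03, and 0 of the 7 passed, beside 0.284% of 14070 genes.

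Which of the 7 passed by labelled sex depended on the setting, and the following settings keep the 2 pools that go against their label. Without a filter on low counts, Gabra2 (-0.46, edgeR adjusted p = 0.0327) and Gabrg3 (-0.50, edgeR adjusted p = 0.0455) passed, where 2.45% of 22931 genes did. Without male left pool 3, Gabra2 passed (-0.60, edgeR adjusted p = 0.0337), where 1.98% of 14392 genes did. Within nodose-like neurons alone, Gabbr2 passed (-0.27, SE 0.06, edgeR adjusted p = 0.0443), where 1.24% of 13890 genes did. There Gabbr2 had 158, 183 and 212 CPM as the lowest, median and highest male-labelled pool and 135, 156 and 163 CPM in the female-labelled ones, which still overlapped. The highest was male left pool 1, which goes against its label, and the fit within nodose-like neurons was not run without the 2 pools. The interaction of side with labelled sex passed for 0 of the 7 and for 0.0% of the 14061 genes (586 at an unadjusted p under 0.05, and 0 by DESeq2), with log2 values of 0.35 for Gabra3, 0.25 for Gabrg3, 0.03 for Gabrb2, 0.005 for Gabbr2, -0.13 for Gabra2, -0.21 for Gabra5 and -0.23 for Gabbr1. Several of these changed sign under other settings.

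**Figure D4:**
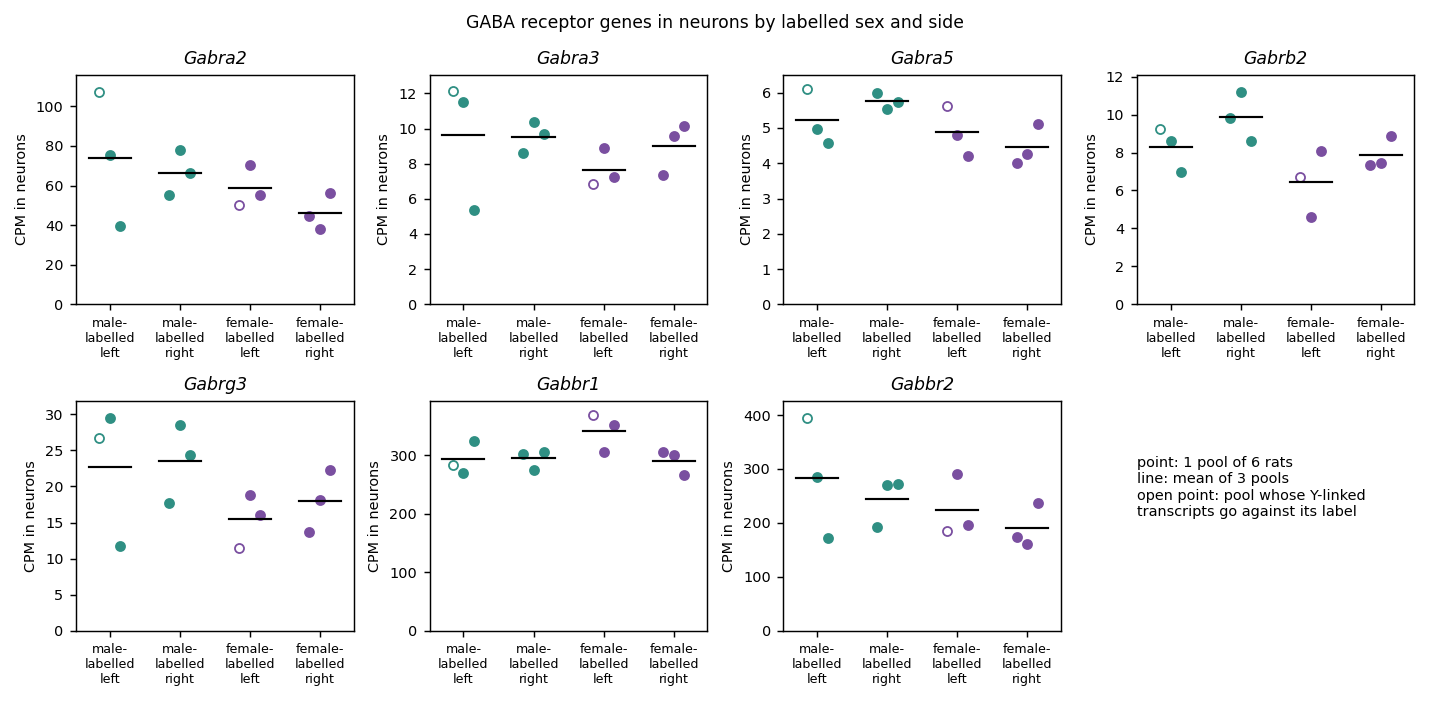
Level of each gene in CPM in all neurons (vertical axes, linear, from 0) by labelled sex and side, with 1 point per pool of 6 rats and a line at the mean of 3 pools. The open points are the 2 pools whose Y-linked transcripts go against their label. The groups overlap, as for Gabra2, at 39.3 to 107 CPM in male-labelled and 38.1 to 70.5 CPM in female-labelled pools.

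In satellite glia-like nuclei 5 of the 7 had enough counts for the same test, all but Gabra5 and Gabrg3. By side 0 of the 5 and 0.0% of the 9896 genes tested passed (507 genes unadjusted, 0 by DESeq2), and by labelled sex 0 of the 5 and 0.0% (630 unadjusted, 0 by DESeq2). Gabra3 had 36.5, 50.9 and 57.6 CPM on the left and 34.4, 41.1 and 72.1 CPM on the right (-0.12, SE 0.15, edgeR adjusted p = 0.993). The largest estimates were those of Gabra2, -0.44 for right over left (SE 0.18, edgeR adjusted p = 0.939) and -0.48 for female-labelled over male-labelled (SE 0.18, edgeR adjusted p = 0.584), each with an unadjusted p under 0.05. Right over left, Gabbr1 gave -0.08, Gabbr2 0.0065 and Gabrb2 0.26, and by labelled sex Gabbr1 gave 0.01, Gabbr2 -0.20, Gabrb2 0.18 and Gabra3 0.14. Without the 2 pools that go against their label, 0 of the 5 and 0.285% of 9819 genes passed by labelled sex, with -0.42 for Gabra2, -0.29 for Gabbr2, -0.03 for Gabbr1, 0.04 for Gabra3 and 0.37 for Gabrb2. In Schwann-like nuclei only Gabbr1 and Gabbr2 could be tested. By side none of them and 0.0% of 7070 genes passed (397 unadjusted, 0 by DESeq2), and by labelled sex none of them and 0.0283% (393 unadjusted, 0 by DESeq2), with log2 values from -0.09 to 0.18. Without the 2 pools, none of them and 0.323% of 6509 genes passed by labelled sex, and Gabbr1 gave -0.06 and Gabbr2 0.14, the latter with its sign reversed from -0.07.

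Of the other GABA genes, 35 could be tested in neurons. None passed by side (4 unadjusted), by labelled sex (11 unadjusted) or for the interaction (0 unadjusted) in edgeR over all pools with the filter on low counts. By side, DESeq2 called Kctd12 higher on the right, where 0.476% of all genes were called. In edgeR it was called without the filter (0.45, edgeR adjusted p = 0.0144), where 0.231% were. It was also called without female right pool 1 (0.52, edgeR adjusted p = 0.0417), where 0.153% were. By labelled sex DESeq2 called 4 of the 35, Gabarapl1 higher and Kcnj3, Kctd8 and Kctd16 lower in female-labelled pools, where 3.18% of all genes were called. In edgeR, 5 of 44 were called without the filter, the same 4 and Gabarap, which was higher, where 2.45% of all genes were. The same 4 were called without male left pool 3, where 1.98% were. Without male right pool 1, 3 of 35 were called (Gabarap and Gabarapl1 higher, Kctd16 lower), where 4.16% of all genes were, and without female right pool 3 also 3 (Gabarapl1 higher, Kcnj3 and Kctd16 lower), where 1.36% were. Nodose-like neurons alone gave 3 of 34 (Gabarapl1 higher, Kctd8 and Kctd16 lower), where 1.24% of all genes were called. Scaling by library size gave Gabarapl1, where 0.306% of all genes were called. Gabarap and Gabarapl1 encode proteins that bind GABA-A gamma subunits in trafficking and belong to a family of autophagy proteins. Without the 2 pools that go against their label, 0 of the 35 passed by labelled sex.

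None of the 24 tested in satellite glia-like nuclei or the 18 in Schwann-like nuclei passed in either tool over all pools. Without the 2 pools, 1 of 25 in satellite glia-like nuclei passed by labelled sex, where 0.285% of all genes did. It was Lhfpl4, which encodes a GABA-A receptor partner at inhibitory synapses and was lower in female-labelled pools (-0.45, SE 0.11, edgeR adjusted p = 0.0493). In Schwann-like nuclei 0 of 17 passed without them.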

How the data were processed

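Nuclear RNA was counted with Evercode version 2 kits. The authors deposited raw counts of UMIs in a nucleus-by-gene matrix, with the names of the genes and a nucleus table naming each nucleus's pool, and its sums equalled the deposited totals in all 36741 nuclei. Per the submitters' processing notes the build was mRatBN7.2, and R 4.3.2 and Seurat 4.1.3 are named without a role. No aligner or annotation is named there (not given in the sources used here). Numbers 4 to 6 in the names of female-labelled pools became replicates 1 to 3.

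Filters of 300 detected genes as a minimum and 5% mitochondrial UMIs as a maximum removed 1 nucleus. Scrublet in scanpy 1.11.5 called 2 doublets, too few to count as a working caller, so leaving out the 5% of nuclei with the highest scores was an alternative. Normalised counts (3000 variable genes, 30 principal components, 20 neighbours, Leiden resolution 1, leidenalg 0.10.2) were clustered, neurons and other nuclei again apart with 2000 genes. Non-neuronal clusters were named where at least 3 markers were 2-fold up and detected in 10% of nuclei, with a marker among the 10 leading genes. Neurons were clusters without such a name in which at least 3 neuron markers were 1.5-fold above the named non-neuronal clusters. They also had to come from the nuclei taken as neurons in the first clustering. Clusters from the other nuclei that met this limit without a non-neuronal name stayed unnamed. Jugular-like clusters had at least 3 markers 2-fold above the other neurons. Nodose-like clusters had at least 3 markers 2-fold above the jugular-like ones. Neither step had a detection limit. Neuron clusters that met neither list, or also a further one, were counted as other neurons. The naming rules were settled after the clusters were seen.

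Levels are a class's UMIs of a gene per 1000000 of its UMIs (CPM), per pool with at least 20 nuclei or, in subclusters, 10. UMIs were summed per pool and tested with edgeR 4.0.16 (quasi-likelihood, TMM, filterByExpr, side and labelled sex as terms) over all genes, with Benjamini-Hochberg adjustment at 0.05. The fit recovered known changes when tested on simulated data. Those changes were larger than the log2 changes reported here for the 7 members, and were put into well-counted genes of pools drawn independently. Recovery of smaller changes was not tested. DESeq2 1.42.0, scaling by library size, no filter, each pool left out, pools ML1 and FL1 left out, 3 other clusterings, a replicate block and nodose-like neurons alone were the alternatives. All 7 members are named in each comparison they could be tested in, with the 3 subclusters where each is highest and lowest and the 3 genes of most similar pattern. The members and gene lists were chosen with earlier results of these data known. Some genes of the GABA list are not reported here.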

Additional observations from a re-analysis of the deposited data

How the results depend on the processing

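Counts of UMIs limit the sparse members: Gabra5 rests on 509 and Gabrb2 on 823 UMIs in all neurons, and 2 and 5 of the 7 were too low to test in satellite glia-like and Schwann-like nuclei. Pools are few, rats are shared between sides, and 2 pools go against their sex label. The number of members passing by labelled sex in neurons, 0 as reported, became 2 without a filter on low counts and 1 in nodose-like neurons alone, and lay between 0 and 1 when each pool was left out, with 1 only without male left pool 3. By side, for the interaction and in both glial classes it was 0 under every alternative run. Correlations of same-numbered left and right pools lay between -0.085 and 0.165, and those of differently numbered pools between -0.151 and 0.171. The check therefore could not tell whether pool numbers pair the samples. With the replicate block, 2 genes in place of 19 passed by side in neurons, and 0 of the 7. Over all genes, 67 by DESeq2, 53 without a filter, 59 in nodose-like neurons, 10 at resolution 0.5, 2 without male left pool 1 and female left pool 1, and 1 to 22 with a pool left out passed by side in neurons. By labelled sex these were 447, 562, 172, 40, 40 and 0 to 598 in place of 0, with 43 under library-size scaling and 5 without the highest doublet scores. In satellite glia-like nuclei 0 to 9 genes passed by side and 0 to 42 by labelled sex over the alternatives (0 and 0 as reported), and in Schwann-like nuclei 0 to 16 and 0 to 21 (0 and 2 as reported).

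Some log2 changes reversed, none of which passed in any setting. Gabra5 by side in neurons, -0.02, was 0.12 without these 2 pools, 0.034 without the GABA genes in the clustering, 0.073 at resolution 0.5, 0.039 in nodose-like neurons, and -0.061 to 0.064 with a pool left out. In satellite glia-like nuclei, Gabbr2 by side (0.0065) was -0.080 without the GABA genes, -0.12 at resolution 0.5, -0.11 at resolution 2, and -0.10 to 0.14 with a pool left out. Gabrb2 by side (0.26) was -0.0076 at resolution 0.5, Gabra3 by side (-0.12) was 0.030 without the GABA genes, and Gabbr1 by labelled sex (0.01) was -0.034 without these 2 pools and -0.022 to 0.051 with a pool left out. In Schwann-like nuclei, Gabbr1 by side (-0.09) was 0.0115 and by labelled sex (-0.03) 0.0045 at resolution 2, and the latter lay between -0.0599 and 0.038 with a pool left out. There Gabbr2 by side (0.18) was -0.39 at resolution 2 and between -0.0102 and 0.37 with a pool left out, and by labelled sex (-0.07) it was 0.14 without these 2 pools and between -0.34 and 0.14 with a pool left out. For the interaction in neurons, Gabbr2 (0.005) was -0.0132 by DESeq2, -0.0018 by library size, -0.42 without these 2 pools, -0.0001 without the highest doublet scores, -0.01 at resolution 0.5, and between -0.32 and 0.26 with a pool left out. Gabrb2 (0.03) was -0.048 without these 2 pools, -0.045 without the highest doublet scores, -0.0129 without the GABA genes, and between -0.12 and 0.20 with a pool left out. Gabrg3 (0.25) was -0.087 without these 2 pools, and Gabra2 (-0.13) lay between -0.52 and 0.16 with a pool left out.

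Levels moved with the clustering. Without the GABA genes the log2 ratio of neurons to satellite glia-like nuclei was 0.54 for Gabra2, 0.99 for Gabrg3 and 1.18 for Gabbr2 in place of 1.01, 1.64 and 1.52, and that of jugular-like to nodose-like neurons 0.60 for Gabrg3 and 2.58 for Gabbr2 in place of 1.80 and 2.37. At resolution 2 the latter was 3.13 for Gabra2 (2.61 as reported) and 2.55 for Gabbr2. The mean of per-nucleus CPM gave -0.23 for Gabbr1 between neurons and satellite glia-like nuclei (-0.07 as reported). At resolution 2 Gabbr1 in satellite glia-like over Schwann-like nuclei was 0.59 in place of 0.84. The highest subcluster had 273 CPM of Gabra2 at resolution 0.5, 130.1 CPM of Gabrb2 and 337 CPM of Gabrg3 at resolution 2, and 451.5 CPM of Gabbr1 without the GABA genes. The cause was not tested. Of the other values compared, 918 kept their direction and side of the threshold, or moved by less than 1 SD over the pools.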
